A study of Mus musculus with 8 samples.

Results

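The genes that depend on the nuclear receptor RORγt in Th17 cells were examined by setting 2 arrays of RORγt-deficient cells beside 2 arrays of wild-type cells, 4 of the 8 arrays of the study. The arrays were chosen by their titles, RORgt-deficient against RORgt-WT, and the cells came from RORgt (-/-) mice and RORgt WT mice; both groups were labelled Th17 cells and carry the same culture text. That text describes naive CD4+ T cells activated through CD3 and CD28 and driven toward the pathogenic Th17 fate by IL-1, IL-6 and IL-23, and it names SRC-3-deficient and wild-type cells only, so the culture of the RORγt groups is taken from the labels they share. Age and strain are not given in the sources used here, nor is the part of the gene that was removed. The other 4 arrays, from SRC-3-deficient (f/f) and wild-type Th17 cells, served to estimate how much each gene varies. They also counted in deciding which probe sets were bright enough to test and which probe set stood for a gene. Of 11128 genes in the fit, the 10799 with an autosomal symbol are described, and X- and Y-linked genes were left out of all counts.

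RORγt is a transcription factor of the nuclear receptor superfamily that is switched on when CD4 T cells receive signals such as IL-6 and IL-23. It binds DNA as a monomer at response elements built on a hexamer half-site and directs the genes of IL-17 and of the IL-23 receptor, through which Th17 cells protect mucosal surfaces and drive autoimmune inflammation. T cells that lack it are known for failing to become Th17 cells, while the upstream factors STAT3, IRF4 and BATF act before it.

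The 4 genes below were lower in the deficient cells and are placed under this receptor by textbook accounts, and their sequences just upstream of the transcription start are shown because RORγt response elements contain AGGTCA. They were chosen with their values known and are those that held a match among the genes whose windows were searched singly. Ermn, Ltb4r1 and Furin, also placed under the receptor, held no match, and Ermn fell more than Ccr6. Each line gives the 250 bases before the start of the RefSeq gene on assembly GRCm38.p6, 5′ to 3′ on the coding strand, with each AGGTCA hexamer in capitals (written TGACCT where it lies on the opposite strand). The Il17a window is chr1:20730655-20730904 on the plus strand, that of Il17f is chr1:20784271-20784520 on the minus strand, that of Il23r is chr6:67491856-67492105 on the minus strand, and that of the first of 2 listed Ccr6 starts is chr17:8235793-8236042 on the plus strand.
Il17a: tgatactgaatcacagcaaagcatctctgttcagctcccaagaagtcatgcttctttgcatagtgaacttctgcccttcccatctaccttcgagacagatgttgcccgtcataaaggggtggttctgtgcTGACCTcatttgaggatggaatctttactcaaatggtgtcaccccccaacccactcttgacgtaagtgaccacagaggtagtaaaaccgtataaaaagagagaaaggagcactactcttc
Il17f: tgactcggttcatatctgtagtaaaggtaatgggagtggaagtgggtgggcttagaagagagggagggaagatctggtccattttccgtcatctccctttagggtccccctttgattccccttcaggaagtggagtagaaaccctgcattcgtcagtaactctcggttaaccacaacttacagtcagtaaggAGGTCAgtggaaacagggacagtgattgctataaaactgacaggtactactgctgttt
Il23r: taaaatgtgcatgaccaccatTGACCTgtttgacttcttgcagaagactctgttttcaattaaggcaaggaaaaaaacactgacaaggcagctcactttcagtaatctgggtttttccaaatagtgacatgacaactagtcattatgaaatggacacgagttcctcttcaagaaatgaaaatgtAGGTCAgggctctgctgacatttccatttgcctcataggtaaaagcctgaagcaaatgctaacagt
Ccr6: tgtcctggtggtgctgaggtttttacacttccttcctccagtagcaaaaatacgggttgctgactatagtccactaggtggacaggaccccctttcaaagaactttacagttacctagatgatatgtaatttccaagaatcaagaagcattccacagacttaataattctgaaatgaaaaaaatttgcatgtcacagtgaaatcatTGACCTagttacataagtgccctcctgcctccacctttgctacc
Il17a held 1 match, beginning 120 bases before the start, and Il17f held 1, beginning 58 bases before it. Il23r held 2, at 229 and 66 bases, and Ccr6 held 1, at 44 bases, whereas the window of the second Ccr6 start held none. In Ccr6 and in the match of Il23r nearer its start the hexamer was preceded by T, giving TAGGTCA, a longer motif that contains the first. Windows of the lowered genes Ermn, Ltb4r1, Furin, Nr1d1, Arntl, Cysltr2, Olfr60, Timd2 and Dab2 held no match on either strand. Searched on both strands, AGGTCA stood in 4607 of all 32851 listed promoter windows of this length (14.0%). A promoter window was listed for 8679 of the 10799 genes tested, and 1114 of these genes (12.8%) held the hexamer in at least 1 window. The shares were 110 of 817 genes lower in the deficient cells (13.5%) and 109 of 877 genes higher (12.4%), close to that of all genes. Among genes changed at least 2-fold the hexamer stood in 5 of 36 lower (13.9%) and 1 of 46 higher (2.17%). TAGGTCA stood in 172 of the 8679 genes with a window (1.98%), in 13 of the 817 lower (1.59%) and in 16 of the 877 higher genes (1.82%). Among genes changed at least 2-fold it stood in 2 of 36 lower (5.56%), which are Il23r and Ccr6, and in 1 of 46 higher (2.17%). A match describes the letters in this window and does not show binding.

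Many genes differed between the RORγt-deficient and the wild-type arrays, most of them by little. Signals are log2 RMA values, on which a difference of 1 is a doubling, and values are given throughout for deficient replicates 1 and 2 and then for wild-type replicates 1 and 2. At a limma adjusted p of 0.05 or less (Benjamini-Hochberg over all genes in the fit), 2090 of 10799 genes passed (19.4%), 1072 of them higher in the deficient cells (9.93%) and 1018 lower (9.43%). Counts in the gene lists below are to be read beside this 19.4%. Of the genes that passed, 794 higher and 818 lower differed by under 1.5-fold. At least 2-fold separated the groups for 119 genes (1.1%), 70 higher (0.648%) and 49 lower (0.454%), and at least 4-fold for 5 higher and 9 lower genes. The groups did not overlap for 7580 genes (70.2%), and the median log2 difference over all genes was 0.00. A lack of overlap is thus the usual state of a gene here, also where it is given for single genes below. The count rested on all 4 arrays: leaving out a deficient array left 471 genes (replicate 1) or 972 (replicate 2), leaving out a wild-type array left 606 (replicate 1) or 537 (replicate 2). Each of the 2090 genes kept its sign in those fits. They had been picked for a difference on these same arrays, so this was nearly fixed in advance.

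Some facts of the libraries stand beside every result. The array medians lay between 7.764 and 7.804, and across genes (which do not stand for replicates) the pairs correlated with r = 0.996 (deficient) and 0.997 (wild type), beside 0.974 to 0.980 between groups. With 2 arrays in a group, their number limits the precision. The genotype labels were not checked directly here and are read only through the genes known to depend on RORγt. The T cell markers Cd4 and Cd3e were at least 12.98 on all arrays, and none of the 8 T cell markers past the filter on dim probe sets (7.85 on at least 2 arrays) passed the test. The deficient arrays carried a male pattern and the wild-type arrays a female one: Xist read 6.37, 6.08, 12.55 and 12.76, and the Y-linked Eif2s3y read 10.47, 10.48, 4.84 and 4.63. Sex and genotype therefore cannot be told apart within these 4 arrays. Only SRC-3-deficient replicate 1 shared the low Xist signal (7.10), and a term for low-Xist arrays, which is estimated through that 1 pair alone, left 92 genes past the threshold, 51 higher and 41 lower, 88 of them among the 2090. With this term each of the 2090 kept its direction. RNA comes from whole cultures, so fewer cells of a kind and less RNA per cell cannot be told apart.

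**Figure D1:**
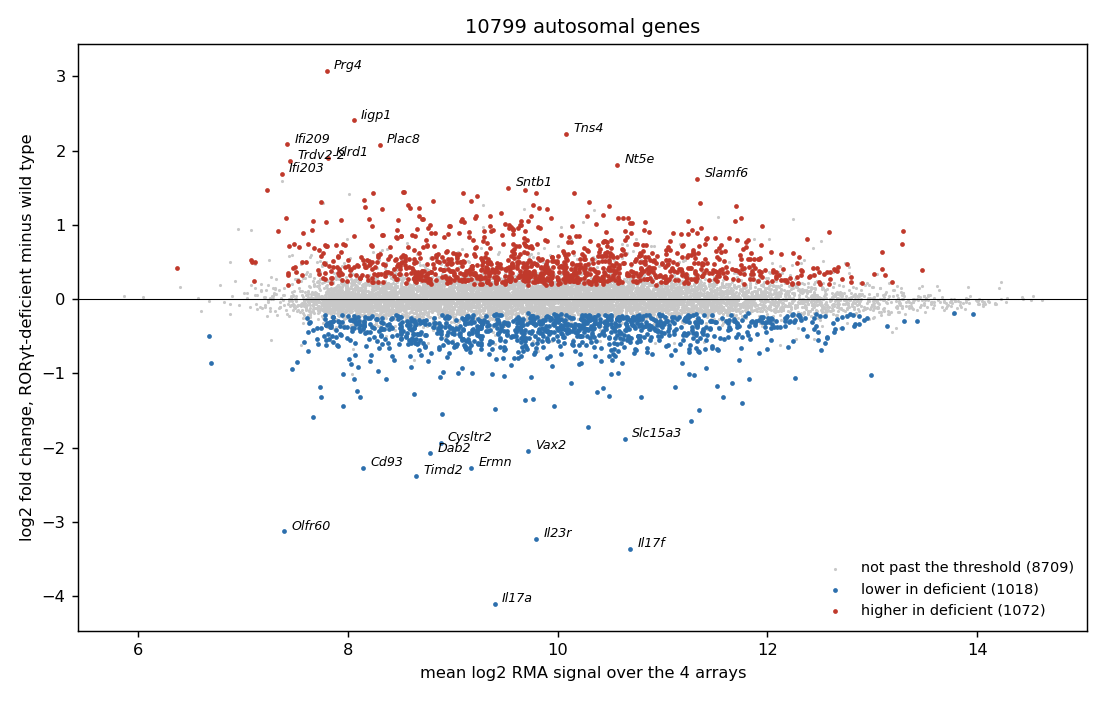
Each point is 1 of 10799 autosomal genes, placed by its mean log2 RMA signal over the 4 arrays (horizontal axis) and its log2 fold change, RORγt-deficient minus wild type (vertical axis), with genes past a limma adjusted p of 0.05 in red (1072 higher) or blue (1018 lower). Il17a, Il17f, Il23r and Olfr60 lie lowest, below −3, and Prg4 alone lies above 3.

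The genes named for the Th17 fate were lost most. Il17a, which encodes the signature cytokine IL-17A (probe set 10345032, chromosome 1), read 7.52 and 7.16 in the deficient pair against 11.63 and 11.27 in the wild-type pair, a log2 fold change of −4.11 (SE 0.17, limma adjusted p = 4.86e-05), or 17.3-fold lower. Both deficient values lay below the filter value of 7.85, near the dim end of the array, so the size of this difference is less certain than its sign. Il17f, the neighbouring gene of the related cytokine IL-17F (probe set 10353415), read 8.95 and 9.07 beside 12.47 and 12.27, or 10.3-fold lower (−3.36, SE 0.13, adjusted p = 4.86e-05). Il23r, the receptor chain that lets Th17 cells answer IL-23 (probe set 10545154), read 8.28 and 8.08 beside 11.47 and 11.35, or 9.38-fold lower (−3.23, SE 0.14, adjusted p = 4.87e-05). In these 3 genes the gap between the groups exceeded the gap within either pair by far, and the calls stood whichever of the 4 arrays was left out and with the term for low-Xist arrays.

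Among the other secreted factors of T helper cells, Csf2, Il24, Lif, Ebi3, Lta and Il21 were lower. Of 18 cytokine genes tested, Il17a and Il17f included, 8 were lower, 2 were higher and 8 did not pass, with a median of −0.41 beside 0.00 over all genes. Thus 55.6% passed, beside 19.4% over all genes. With the dim members fitted too, 8 of 21 were lower and 3 higher, and the median was −0.08. Csf2, which encodes GM-CSF, a cytokine tied to the harmful form of Th17 cells, read 7.30 and 7.74 beside 8.70 and 8.49 (−1.07, SE 0.14, adjusted p = 0.00369). Il24, of the IL-10 family, read 10.70 and 11.13 beside 12.18 and 12.28 (−1.32, SE 0.29, adjusted p = 0.0195). Lif, the leukemia inhibitory factor, read 10.87 and 11.01 beside 12.12 and 12.09 (−1.17, SE 0.27, adjusted p = 0.0242). These 3 did not overlap between groups, as 70.2% of all genes did not. Il24 and Lif stayed well above the dim range on the deficient arrays. Ebi3, a subunit shared by IL-27 and IL-35, fell by 0.99 on the log2 scale, Lta (lymphotoxin alpha) by 0.66, and Il21, which supports B cells and Th17 cells, by 0.59. Il13, a Th2 cytokine, was slightly higher (0.34), and Tnf gave −0.62 without passing (adjusted p = 0.104). The values of Il2 (−0.22), Il4 (0.16), Il3 (−0.08) and Il9 (−0.01) did not pass. The interferon gamma gene Ifng, dim on these arrays and fitted without the filter, read 7.60, 7.87, 7.17 and 7.16 (0.57, adjusted p = 0.0136), and Il10 read 6.6, 7.67, 6.54 and 6.74 (0.49, adjusted p = 0.352). Some calls did not stand when 1 of the 4 arrays was left out, which leaves 1 array in a group. That of Il24 was lost without deficient replicate 1 or either wild-type array (log2 fold change −1.53 to −1.10 over these fits). Lif lost its call in each such fit, with a change between −1.24 and −1.10. Il21 lost its call without wild-type replicate 2 (−0.71 to −0.47). Il13 did so without deficient replicate 2 or either wild-type array (0.28 to 0.40). Of the cytokines only Il17a and Il17f passed with the low-Xist term.

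**Figure D2:**
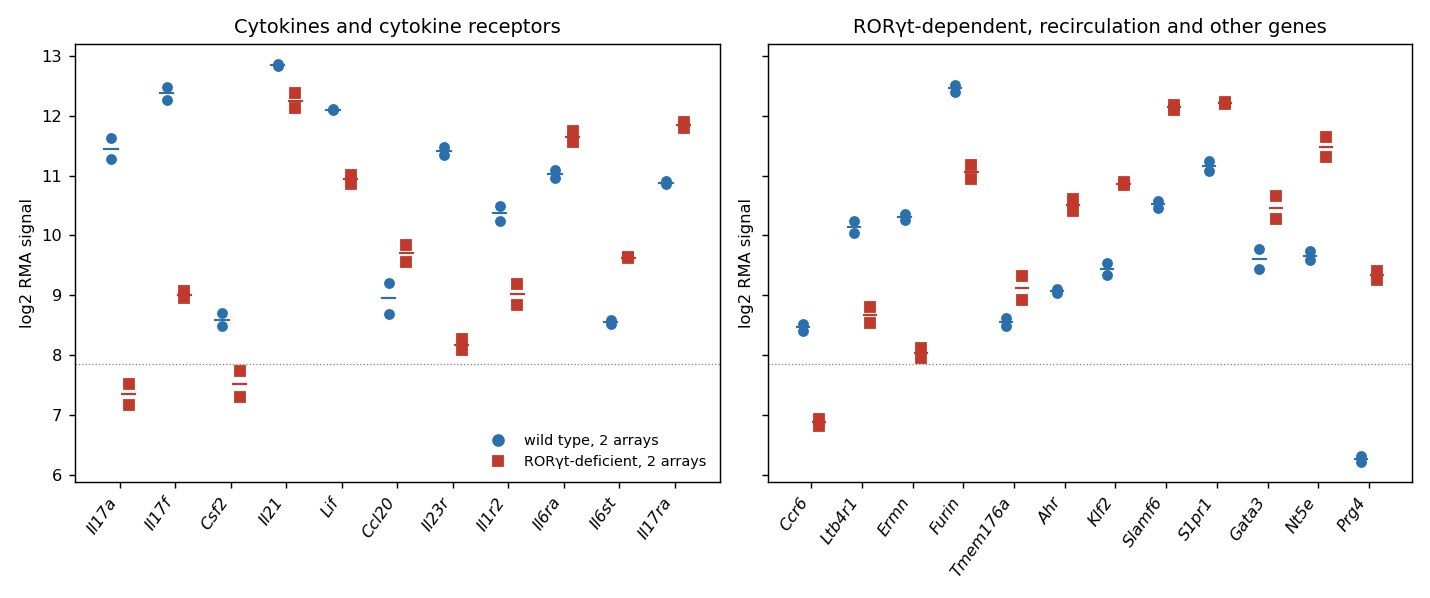
Log2 RMA signal (vertical axis) of 11 cytokine and cytokine receptor genes (left) and 12 other genes (right) on each array, blue circles for the 2 wild-type and red squares for the 2 RORγt-deficient arrays, with a bar at each group mean and a dotted line at the filter value of 7.85. The pairs of Il17a, Il17f and Il23r lie over 3 units apart, while Ccl20 and Tmem176a differ by 0.75 and 0.57 with a wider spread; heights of different genes are not comparable.

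Among genes that earlier work places under RORγt, 9 of 14 were lower, 3 were higher and 2 did not pass, with a median of −1.38. The share that passed was 85.7%, beside 19.4% over all genes. Chosen for this known dependence, the list describes the genotype and is no independent test of it. Ccr6, the chemokine receptor that carries Th17 cells to the gut and inflamed tissue (probe set 10441633), read 6.94 and 6.81 beside 8.52 and 8.41 (−1.59, SE 0.12, adjusted p = 0.000606). Ltb4r1, the receptor of the chemoattractant leukotriene B4, read 8.53 and 8.80 beside 10.24 and 10.05 (−1.48, SE 0.17, adjusted p = 0.00265). Furin, a protease that matures precursors such as that of TGF-β, read 10.94 and 11.18 beside 12.40 and 12.52 (−1.40, SE 0.11, adjusted p = 0.000616). All 3 were thus at least 2-fold lower. Ermn, an actin-binding protein gene known from oligodendrocytes, read 8.13 and 7.95 beside 10.36 and 10.26 (−2.28, SE 0.12, adjusted p = 0.00016). Il1r2, the decoy receptor of IL-1, read 8.83 and 9.19 beside 10.49 and 10.24 (−1.35, SE 0.18, adjusted p = 0.00369), and Avpi1 fell by 0.87. The 3 higher members went the other way. Ccl20, the ligand of CCR6, read 9.85 and 9.56 beside 9.21 and 8.69 (0.75, SE 0.19, adjusted p = 0.0335). The membrane protein genes Tmem176a (8.93, 9.32, 8.63 and 8.49; 0.57, adjusted p = 0.0338) and Tmem176b (0.48, adjusted p = 0.0237) were also higher. Those 3 calls were the weak ones: that of Ccl20 was lost without either deficient array or wild-type replicate 2 (highest adjusted p 0.195), and those of the Tmem176 pair without deficient replicate 2 or either wild-type array (0.179 and 0.136). The 9 lower calls stood in every fit without 1 of the 4 arrays, and 6 of them (Il17a, Il17f, Il23r, Ermn, Ccr6 and Furin) passed with the low-Xist term.

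Cytokine receptor genes moved both ways, and 57.1% of those tested passed, beside 19.4% over all genes. Of 28 tested, 11 were higher and 5 lower (median 0.08), and 5 to 6 were higher and 4 to 5 lower when 1 of the 4 arrays was left out. Beside Il23r and Il1r2 the lower ones were Il17re, a receptor chain for IL-17C (−0.54), Il12rb1, the chain shared by the IL-12 and IL-23 receptors (−0.52), and Il7r, the receptor of the survival cytokine IL-7 (−0.44). The signal chain of IL-6 rose: Il6st, which encodes gp130, read 9.62 and 9.64 beside 8.52 and 8.58 (1.08, SE 0.06, adjusted p = 0.000216). Its partner Il6ra read 11.56 and 11.74 beside 10.97 and 11.09 (0.62, SE 0.08, adjusted p = 0.00428). Il17ra, the receptor for IL-17 itself, read 11.90 and 11.79 beside 10.91 and 10.86 (0.96, SE 0.07, adjusted p = 0.000633). The genes of IL-17A and IL-17F were thus lower and that of their receptor higher. Among receptors of interferons and of the Th1 cytokine IL-18, Ifngr1 (0.79), Il18r1 (0.61), Il18rap (0.43), Ifnar1 (0.38) and Ifnar2 (0.25) were higher. Ifngr2, the second chain of the interferon gamma receptor, read 11.95 and 12.10 beside 12.13 and 12.14 without passing (−0.11, adjusted p = 0.373). Smaller rises were those of Il10rb (0.41), the IL-1 receptor accessory chain Il1rap (0.40) and Il27ra (0.36). The IL-2 receptor genes Il2ra (−0.13) and Il2rb (−0.18), Il21r (0.02), Il4ra (0.15) and Il12rb2 (−0.06) did not pass. Whichever of the 4 arrays was left out, the calls of Il23r, Il1r2, Il17re, Il7r, Il6st, Il6ra, Il17ra and Ifngr1 stood. Those of Ifnar2, Il18r1 and Il18rap were lost in each of these fits (highest adjusted p 0.187, 0.10 and 0.106) and that of Il1rap without deficient replicate 1 (0.0525). The calls of Ifnar1 (deficient arrays or wild-type replicate 2, 0.0753), Il27ra (deficient arrays or wild-type replicate 1, 0.0798), Il10rb (deficient replicate 2 or wild-type arrays, 0.173) and Il12rb1 (deficient replicate 1 or wild-type arrays, 0.0594) each depended on 3 arrays. With the low-Xist term Il23r, Il6st and Il17ra passed.

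The transcription factors that start the Th17 programme differed little. Of 21 tested, 2 were higher, 3 lower and 16 did not pass (median −0.02). The share that passed was 23.8%, beside 19.4% over all genes. Stat3, which carries the IL-6 and IL-23 signal, read 12.46 and 12.51 beside 12.38 and 12.42 (0.08, SE 0.09, adjusted p = 0.573). Irf4 read 12.78 and 12.83 beside 12.84 and 12.88 (−0.06, SE 0.11, adjusted p = 0.771), and its partner Batf read 10.00 and 10.07 beside 10.32 and 10.21 (−0.23, SE 0.08, adjusted p = 0.0705). Rora, the receptor most closely related to RORγt, read 10.26 and 10.24 beside 10.22 and 10.32 (−0.02, SE 0.16, adjusted p = 0.949). Of these 4 genes only Rora overlapped between the groups, and the others stood apart by little more than the gap within a pair. Values were also small for Maf (−0.11), Hif1a (0.00), Runx1 (0.00), Junb (−0.04) and Fosl2 (0.21). Bhlhe40, a basic helix-loop-helix factor that Th17 cells need for GM-CSF, read 11.85 and 11.88 beside 12.50 and 12.54 (−0.65, SE 0.06, adjusted p = 0.00151). The Notch effector Rbpj (−0.44) and the TGF-β effector Smad3 (−0.29) were lower too, and the Ikaros family gene Ikzf3 was higher (0.61). The calls of Smad3 and Ikzf3 were lost whichever of the 4 arrays was left out (highest adjusted p 0.231 and 0.228) and that of Rbpj without deficient replicate 1 or either wild-type array (0.118).

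Ahr and 3 targets of the aryl hydrocarbon receptor were higher. Ahr, a ligand-activated factor that Th17 cells express, read 10.60 and 10.41 beside 9.11 and 9.04 (1.43, SE 0.10, adjusted p = 0.000485). Of 8 genes tested from its pathway, 4 were higher and none lower (50%, beside 19.4% over all genes, median 0.53). The other 3 are classical targets of the receptor: Cyp1a1, a monooxygenase, read 8.56 and 8.23 beside 7.09 and 7.10 (1.30, SE 0.25, adjusted p = 0.0128). The related Cyp1b1 read 7.92 and 7.66 beside 6.86 and 6.89 (0.92, SE 0.13, adjusted p = 0.00505), and Ahrr, the repressor of the pathway, read 8.05 and 7.87 beside 6.78 and 6.95 (1.09, SE 0.17, adjusted p = 0.00687). Wild-type values of the 3 targets were dim, under 7.85, so their fold changes are less certain. With the dim members fitted too, 4 of 10 were higher and the median was 0.12, so the count of 8 does not stand for the whole pathway. Cyp1a1 lost its call without deficient replicate 1 or either wild-type array (highest adjusted p 0.0934) and Ahrr without either replicate 1 (0.059), and only Ahr passed with the low-Xist term.

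The circadian clock contains genes with ROR response elements. Of 14 clock genes tested, 4 were lower and 1 was higher (35.7%, beside 19.4% over all genes), with a median of −0.26. Nr1d1, which encodes REV-ERBα, the repressor that competes with ROR proteins for the same DNA element, read 8.28 and 8.42 beside 9.42 and 9.38 (−1.06, SE 0.08, adjusted p = 0.000485). Arntl, the gene of the clock activator BMAL1, read 9.03 and 8.96 beside 9.57 and 9.39 (−0.48, SE 0.07, adjusted p = 0.00591). The repressor gene Cry1 read 9.04 and 9.13 beside 9.67 and 9.65 (−0.58, SE 0.09, adjusted p = 0.00657), and Bhlhe40, described above, is also a clock repressor. Repressor and activator genes thus both fell, and the output factor Dbp rose (10.01, 9.98, 9.41 and 9.55; 0.51, adjusted p = 0.0165). The other 9 did not pass, among them Nfil3, which limits Th17 development (−0.30, adjusted p = 0.0826). Cry1 lost its call without deficient replicate 1 or either wild-type array (highest adjusted p 0.0594) and Dbp whichever of the 4 was left out (0.109), and with the low-Xist term Nr1d1 passed. Across the nuclear receptor family, 2 of 20 genes were lower (Nr1d1 and the retinoic acid receptor Rara, −0.26) and 1 higher (the thyroid receptor Thra, 0.36). That is 15% of the list, below the 19.4% over all genes. The coregulators gave 1 lower gene of 16, Ppargc1b, a coactivator of mitochondrial genes (−0.31), and Ncoa1 (−0.18) and Ncoa2 (0.23) did not pass. With 6.25% passing, this list too lay below the share over all genes. The smaller calls did not stand in every fit with 1 array left out. Ppargc1b (−0.35 to −0.26 over these fits) and Thra (0.32 to 0.41) lost theirs whichever of the 4 arrays was left out. Rara (−0.34 to −0.18) lost its call without deficient replicate 1 or either wild-type array.

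Genes of naive, recirculating T cells were higher. Of 16 tested, 10 were higher and 1 lower (68.8%, beside 19.4% over all genes), with a median of 0.50. Klf2, the factor that keeps T cells in circulation, read 10.89 and 10.84 beside 9.53 and 9.35 (1.43, SE 0.09, adjusted p = 0.000317). Its target S1pr1, the receptor with which T cells leave lymph nodes, read 12.23 and 12.19 beside 11.24 and 11.09 (1.05, SE 0.09, adjusted p = 0.000868). Slamf6, a homotypic receptor of the SLAM family, read 12.18 and 12.09 beside 10.58 and 10.47 (1.61, SE 0.09, adjusted p = 0.000216). In each of these genes both deficient arrays stood above both wild-type arrays by several times the gap within a pair. Dapl1 (1.26), Igfbp4 (0.74) and the laminin receptor chain Itga6 (0.62) followed, and so did the quiescence factors Foxp1 (0.52) and Foxo1 (0.48), the costimulatory receptor Cd27 (0.54) and the gut-homing integrin chain Itgb7 (0.41). Il7r, another naive T cell gene, was lower as given above, and the naive factors Lef1 (−0.08), Satb1 (−0.17) and Bach2 (0.00) did not pass. Foxp1 and Cd27 lost their calls without either replicate 1 (highest adjusted p 0.0597 and 0.0529), Foxo1 and Itgb7 without deficient replicate 2 or either wild-type array (0.0678 and 0.101). With the low-Xist term Klf2, S1pr1 and Slamf6 passed.

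A list of transcription factors of other fates held more higher than lower genes, 9 against 2 of 21 tested (median 0.29). That is 52.4% of the list, beside 19.4% over all genes. With the dim members fitted too, it was 9 against 1 of 23 (median 0.15). The 9 higher of the 21 include Klf2, Foxp1 and Foxo1, counted above among genes of naive T cells. When 1 of the 4 arrays was left out fewer were higher, with list medians between 0.24 and 0.33. With the low-Xist term 1 was higher, Klf2, and none lower (median 0.105). Gata3, the master factor of Th2 cells, read 10.27 and 10.66 beside 9.45 and 9.77 (0.86, SE 0.17, adjusted p = 0.0138). Tox, which shapes developing and chronically stimulated T cells, read 10.38 and 10.17 beside 9.41 and 9.54 (0.80, SE 0.08, adjusted p = 0.0018). Twist1, a basic helix-loop-helix factor found in Th1 cells, read 8.29 and 8.0 beside 7.49 and 7.34 (0.73, SE 0.10, adjusted p = 0.00446). Wild-type Twist1 was dim. The interferon-responsive factor Irf1 (0.56), the IL-12 effector Stat4 (0.45) and the homeobox factor Hlx (0.45) were higher, whereas Tbx21, which encodes the Th1 master factor T-bet, read 10.04 and 10.23 beside 9.89 and 9.70 without passing (0.34, adjusted p = 0.177). Id2, an inhibitor of E proteins, and Bcl6, the factor of follicular helper cells, were both lower by 0.37. Gata3 lost its call without deficient replicate 2 or wild-type replicate 1 (highest adjusted p 0.0954), Id2 without either replicate 1 (0.0623), Irf1 without wild-type replicate 2 (0.0556), Stat4 without deficient replicate 1 or either wild-type array (0.111), and Hlx and Bcl6 whichever of the 4 was left out (0.108 and 0.226). With the low-Xist term Gata3 (adjusted p = 0.196), Tox (0.0643) and Twist1 (0.108) did not pass.

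By fate, most lists held calls in both directions. The shares that passed were 75% for Th1, 40% for Th2, 35.3% for regulatory T cell and 54.5% for follicular helper genes. They were 52.9% for pathogenic and 37.5% for non-pathogenic Th17 genes, beside 19.4% over all genes. Of 12 Th1 genes, 7 were higher and 2 lower (median 0.44), but 1 to 3 were higher and 1 lower when 1 of the 4 arrays was left out, and 0 higher (6 of the 12 at an unadjusted p under 0.05 by limma) and 1 lower with the low-Xist term. Gzmb, the protease granzyme B, read 12.99 and 13.08 beside 12.05 and 12.21 (0.91, SE 0.26, adjusted p = 0.0478). The 2 lower ones were the chemokine gene Ccl5 (−0.66) and Cd226, an activating adhesion receptor (8.94, 9.01, 9.64 and 9.79; −0.74, SE 0.07, adjusted p = 0.0014). Of 10 Th2 genes, 3 were higher (Gata3, Il13 and the chemokine receptor Ccr8, 0.37) and Il24 was lower. Among 17 regulatory T cell genes 5 were higher and 1 lower: Fgl2, a secreted suppressor (9.42, 9.82, 8.69 and 8.48; 1.03, adjusted p = 0.00554), Nrp1 (0.91), Entpd1, Gpr83 (0.52) and the feedback inhibitor Socs2 (0.43) rose, and Ebi3 fell. Of 11 follicular helper genes, Slamf6, Tox and Pou2af1, a coactivator of octamer-binding factors (11.05, 11.29, 10.19 and 9.95; 1.10, adjusted p = 0.00145), were higher, and Il21, Bcl6 and the surface ligand Cd200 (−0.45) were lower. The pathogenic Th17 signature split 4 higher to 5 lower among 17 genes (median −0.08): Il23r, Csf2, Gpr65, Ccl5 and Bhlhe40 fell, and Gzmb, Lgals3 (0.53), Stat4 and Ccl20 rose. Of the 8 non-pathogenic genes, Ahr, Il6st and Ikzf3 were higher and none was lower. Within this paragraph the calls of Gzmb, Ccl5, Ccr8, Nrp1, Gpr83, Socs2 and Lgals3 were lost whichever of the 4 arrays was left out (highest adjusted p between 0.143 for Ccr8 and 0.225 for Gpr83), that of Cd200 without deficient replicate 1 or either wild-type array (0.119), and that of Fgl2 without wild-type replicate 2 (0.0506). Of the genes not described earlier, Socs2 and Cd226 passed with the low-Xist term.

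**Figure D3:**
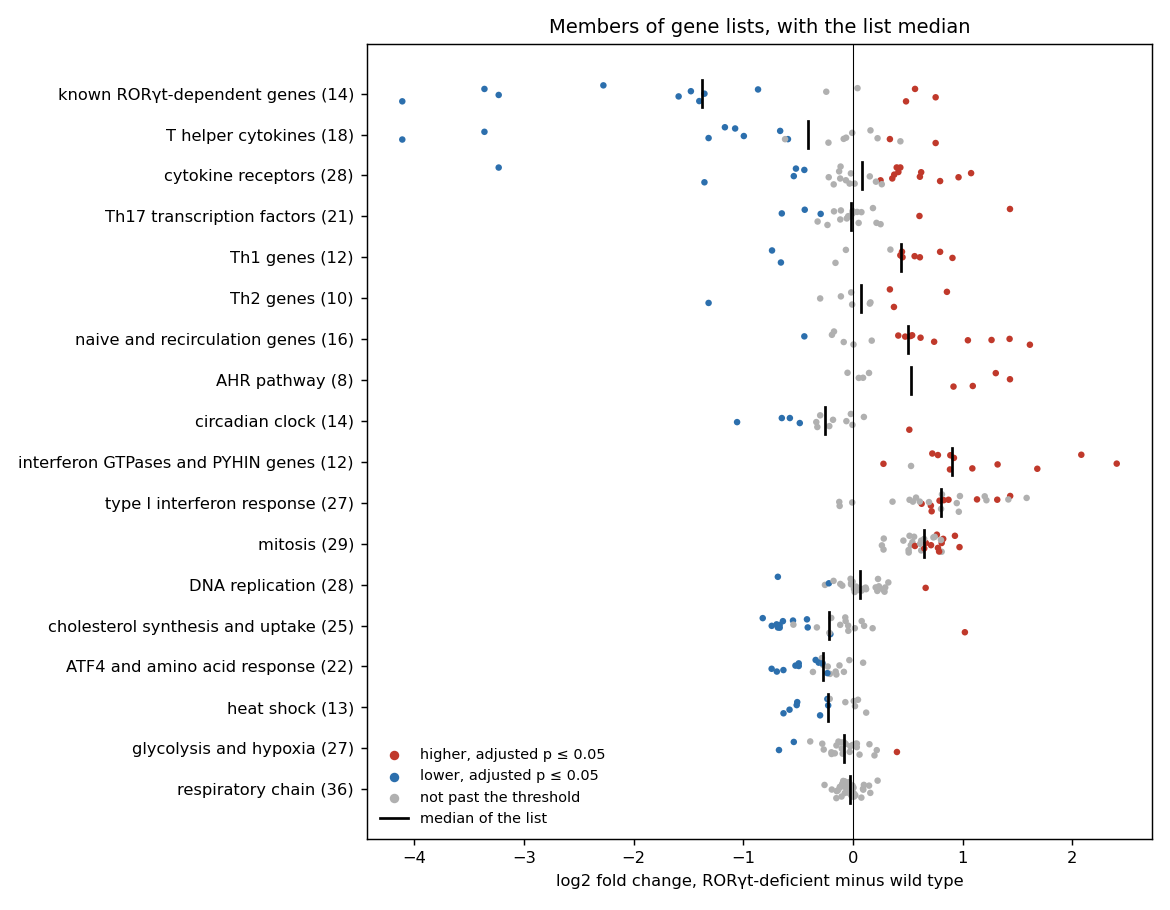
Each point is a gene of a list (number tested in brackets), placed by its log2 fold change, RORγt-deficient minus wild type; red and blue points passed a limma adjusted p of 0.05 and the black bar is the median of the list. The known RORγt-dependent genes have the lowest median (−1.38), the interferon lists (0.90 and 0.80) and the mitosis list (0.65) the highest of those drawn, and the respiratory chain list holds no coloured point.

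Interferon-induced genes were higher in the deficient cells, unevenly between the replicates. Of 27 type I interferon response genes 9 were higher and none lower (33.3%, beside 19.4% over all genes), with a median of 0.80. Mx1, an antiviral GTPase, read 9.33 and 8.58 beside 7.61 and 7.43 (1.43, SE 0.31, adjusted p = 0.0183). Irf7, the factor that amplifies interferon production, read 11.32 and 10.66 beside 9.91 and 9.82 (1.13, SE 0.31, adjusted p = 0.0406), and Zbp1, a sensor of unusual nucleic acids, read 12.10 and 11.99 beside 11.20 and 11.24 (0.83, SE 0.15, adjusted p = 0.01). Deficient replicate 1 exceeded replicate 2 in all 27 genes, including the 18 that did not pass. Relative to each gene's mean of the 4 arrays, the list stood at 0.69 and 0.10 in the deficient pair, above the wild-type pair at −0.39 and −0.40. Oasl2 (1.32) and Oas3 (0.87), of the oligoadenylate synthetase family, showed the same order. A second list, of interferon-induced GTPases and PYHIN genes, gave 11 higher of 12 (91.7%, median 0.90). Other members were too dim to test, and with them fitted 10 of 17 were higher (median 0.77). Iigp1, an immunity-related GTPase, read 9.61 and 8.90 beside 6.81 and 6.89 (2.40, SE 0.47, adjusted p = 0.0133), and Ifi209, a PYHIN gene, read 9.14 and 7.79 beside 6.36 and 6.40 (2.08, SE 0.46, adjusted p = 0.0212). Ifi203 (1.68) and the guanylate-binding protein genes Gbp11 (1.32) and Gbp9 (1.09) followed. For Iigp1, Ifi209 and Ifi203 the wild-type arrays were dim. Without deficient replicate 1 or either wild-type array 1 of the 27 type I genes passed, and without deficient replicate 2 11 did, with list medians between 0.55 and 0.99; of the 12 others 4 to 10 passed. Mx1, Irf7, Zbp1, Oasl2, Oas3, Iigp1, Ifi209 and Gbp9 lost their calls without deficient replicate 1 or either wild-type array (highest adjusted p between 0.0757 for Zbp1 and 0.231 for Irf7), Ifi203 without either wild-type array (0.0632), and Gbp11 without deficient replicate 1 or wild-type replicate 2 (0.0562). With the low-Xist term limma called 0 of the type I genes (1 at an unadjusted p under 0.05) and 1 of the 12. Of 19 JAK, STAT and SOCS genes 5 passed, all higher (26.3%, beside 19.4% over all genes, median 0.05). They were Stat2 (0.72), the feedback inhibitor Socs3 (0.67), Pias1 (0.25), Stat4 and Socs2. Stat2, Socs3 and Pias1 lost their calls whichever of the 4 arrays was left out.

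Genes of mitosis shifted together. All 29 tested had higher group means in the deficient cells with no overlap between groups (median 0.65), beside 70.2% of all genes that did not overlap. Of these 29, 11 passed (37.9%, beside 19.4% over all genes). Prc1, which bundles the microtubules of the central spindle, read 10.32 and 10.28 beside 9.48 and 9.18 (0.97, SE 0.20, adjusted p = 0.0152). The kinetochore gene Cenpf read 9.97 and 9.72 beside 8.97 and 8.85 (0.93, SE 0.22, adjusted p = 0.0248), and the cyclin gene Ccnb2 read 12.87 and 12.69 beside 12.04 and 11.90 (0.81, SE 0.23, adjusted p = 0.0473). Cenpe (0.82) and the hyaluronan-mediated motility receptor gene Hmmr (0.79) followed. The replicates differed here too, since deficient replicate 1 exceeded replicate 2 in 29 of 29 genes, and the list stood at 0.40 and 0.24 in the deficient pair, above −0.24 and −0.39 in the wild-type pair. Whichever of the 4 arrays was left out, limma called 0 of the 29 (9 to 22 had an unadjusted p under 0.05; highest adjusted p 0.108 for Prc1, 0.151 for Cenpf, 0.222 for Ccnb2, 0.197 for Cenpe and 0.23 for Hmmr), whereas 28 passed when the 4 arrays were fitted without the SRC-3 arrays. With the low-Xist term limma called 0 as well, with all 29 at an unadjusted p under 0.05 and a median of 1.135. Of 28 DNA replication genes tested, E2f2 was higher (0.66), the clamp loader gene Rfc3 (−0.68) and E2f1 (−0.22) were lower, and the median was 0.07. That is 10.7% of the list, below the 19.4% over all genes. Whichever of the 4 arrays was left out, Rfc3 and E2f1 lost their calls (highest adjusted p 0.0643 and 0.239), and E2f2 did so without deficient replicate 1 or wild-type replicate 2 (0.0794).

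**Figure D4:**
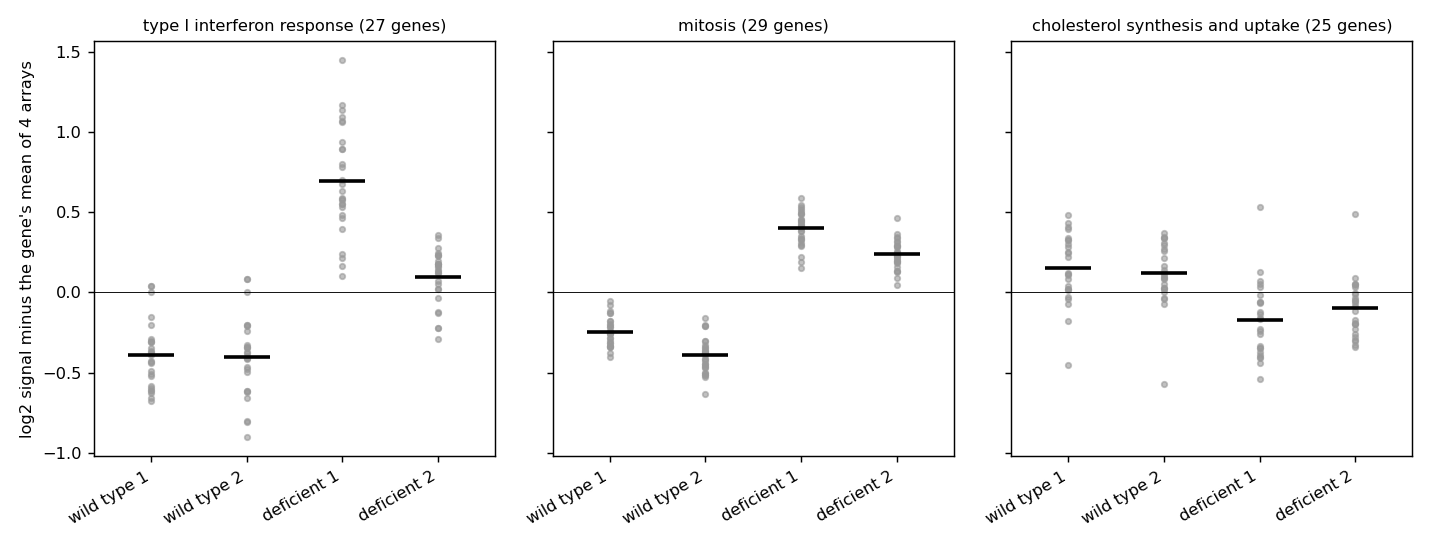
For 3 gene lists, the log2 signal of each gene minus its mean over the 4 arrays (vertical axis) is shown on each array (horizontal axis), 1 point per gene, with a bar at the list mean. The type I interferon list falls from 0.69 on deficient replicate 1 to 0.10 on replicate 2, the mitosis list stands at 0.40 and 0.24, and the cholesterol list at −0.17 and −0.10, below 0.15 and 0.12 for wild type.

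Some of the genes of cholesterol synthesis, the amino acid response and heat shock were lower. The shares that passed in these lists were 48%, 45.5% and 53.8%, beside 19.4% over all genes. Of 25 genes of cholesterol synthesis and uptake, 11 were lower and 1 higher (median −0.22). Msmo1, a sterol demethylation enzyme, read 11.19 and 11.45 beside 12.21 and 12.07 (−0.82, SE 0.12, adjusted p = 0.00554), and Cyp51, the lanosterol demethylase, read 10.50 and 10.56 beside 11.34 and 11.21 (−0.74, SE 0.10, adjusted p = 0.00473). Sqle (−0.70), Insig1 (−0.68) and Hmgcs1 (−0.67) were also lower. Abcg1, which exports cholesterol and is switched on by LXR, read 11.24 and 11.19 beside 10.25 and 10.14 (1.02, SE 0.07, adjusted p = 0.000403). Of 22 genes of the ATF4 and amino acid response, 10 were lower and none higher (median −0.28), led by Sesn2, an inhibitor of mTORC1 (10.09, 10.21, 10.86 and 10.93; −0.74, SE 0.08, adjusted p = 0.00242), Atf3 (−0.69), the glutathione-degrading enzyme gene Chac1 (−0.63), Nupr1 (−0.52) and the arginine transporter gene Slc7a1 (−0.49). Heat shock genes gave 7 lower and none higher of 13 (median −0.23), with Hmox1, the heme oxygenase induced by oxidative stress, at −0.63, and the chaperone genes Hsph1 (−0.58), Hspa1a (−0.51), Hspd1 (−0.51) and Hspe1 (−0.30). When 1 of the 4 arrays was left out, 4 to 9 of the cholesterol genes, 3 to 7 of the ATF4 genes and 0 to 4 of the heat shock genes were lower. Sqle, Insig1, Hmgcs1, Nupr1, Slc7a1, Hmox1, Hspa1a and Hsph1 lost their calls without deficient replicate 1 or either wild-type array (highest adjusted p between 0.0648 for Nupr1 and 0.238 for Hsph1), Atf3 and Hspd1 without deficient replicate 1 or wild-type replicate 2 (0.0599 and 0.0658), and Hspe1 without either deficient array or wild-type replicate 1 (0.208). Of these lists only Abcg1 passed with the low-Xist term, with which the cholesterol list had a median of −0.54, 15 genes at an unadjusted p under 0.05 and Cyp51 at −0.97 (adjusted p = 0.0514).

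Energy metabolism changed in few genes. The share that passed was 11.1% for glycolysis and hypoxia and 0% for the respiratory chain, beside 19.4% over all genes. Of 27 genes of glycolysis and hypoxia, the lactate transporter gene Slc16a1 read 10.31 and 10.48 beside 11.06 and 11.08 (−0.67, SE 0.07, adjusted p = 0.00192), the collagen hydroxylase gene P4ha2 was lower (−0.54) and Pfkm, a phosphofructokinase, higher (0.40), with a median of −0.08. By limma 0 of 36 respiratory chain genes passed (1 had an unadjusted p under 0.05), all lying between −0.26 and 0.22 (median −0.03), and 1 was lower when the 4 arrays were fitted alone. P4ha2 lost its call without deficient replicate 1 or either wild-type array (highest adjusted p 0.0741) and Pfkm whichever of the 4 was left out (0.108).

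Klrd1, Plac8, Ctsw and Gzmb of the cytotoxic list and 4 genes of adenosine handling were higher. In each of these lists 50% of the genes tested passed, beside 19.4% over all genes. Klrd1, the gene of CD94, a chain of NK receptors, read 8.92 and 8.61 beside 7.01 and 6.71 (1.90, SE 0.13, adjusted p = 0.000485). Plac8 read 9.54 and 9.14 beside 7.47 and 7.06 (2.08, SE 0.19, adjusted p = 0.00115), and Ctsw, a cathepsin of cytotoxic lymphocytes, read 11.28 and 11.42 beside 10.28 and 10.34 (1.04, SE 0.15, adjusted p = 0.00485). With Gzmb, 4 of the 8 tested genes of this list were higher and none lower (median 0.97), but 25 more of its genes were too dim to test, so this count does not stand for the whole list. Over all 33 fitted without the filter, 4 were higher and the median was 0.12. Defining NK markers were among the dim ones: Ncr1, Klrb1c and Eomes were at most 7.13 on all 4 arrays, 10 of 11 NK markers did not pass the filter, and their mean signal was 5.73 and 5.72 beside 5.65 and 5.66. Nt5e, the ectoenzyme CD73 that makes adenosine from AMP, read 11.65 and 11.30 beside 9.74 and 9.59 (1.81, SE 0.23, adjusted p = 0.00326). Its partner Entpd1, the ectoenzyme CD39 that supplies AMP, read 8.05 and 8.26 beside 7.45 and 7.44 (0.71, SE 0.09, adjusted p = 0.00344). Both enzymes of extracellular adenosine production were thus higher, as were Dpp4, the adenosine deaminase binding protein CD26 (0.37), and the nucleoside transporter Slc28a2 (0.37), giving 4 higher and none lower of 8. Dpp4 lost its call without deficient replicate 2 or wild-type replicate 1 (highest adjusted p 0.0604) and Slc28a2 without wild-type replicate 2 (0.0533), and Klrd1 passed with the low-Xist term.

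Receptors on the cell surface gave calls in both directions. Timd2, a ferritin-binding receptor of the TIM family, read 7.60 and 7.33 beside 10.02 and 9.65 (−2.38, SE 0.23, adjusted p = 0.00153). Of 19 costimulatory and checkpoint genes 3 were lower (Timd2, Cd226 and Cd200) and 1 higher (Cd96, 0.25). The share that passed was 21.1%, beside 19.4% over all genes. In the lists that follow it was 41.7% (lipid mediators), 66.7% (integrins and adhesion) and 30.8% (TNF superfamily). Gpr183, the oxysterol receptor EBI2 that positions lymphocytes, read 10.39 and 10.65 beside 11.74 and 11.67 (−1.19, SE 0.10, adjusted p = 0.000739). Cysltr2, a receptor of cysteinyl leukotrienes, read 7.72 and 8.10 beside 9.73 and 9.98 (−1.94, SE 0.24, adjusted p = 0.0032). Together with Ltb4r1, both lower genes among 12 lipid mediator genes were leukotriene receptors, and the 3 higher ones were S1pr1, S1pr4 (0.42) and the thromboxane receptor Tbxa2r (0.29). Among 21 integrin and adhesion genes 8 were lower, led by Cd93 (7.04, 6.97, 9.16 and 9.40; −2.27, SE 0.08, adjusted p = 4.86e-05), Itga3 (−0.86), Itgav (−0.49), Itga5 (−0.44) and Icam1 (−0.42), and 6 were higher, led by Itga4, the α4 chain of homing integrins (0.95), Itga6 and Itgb3 (0.56). Gpr65, an acid-sensing receptor linked to harmful Th17 cells, fell by 1.01 (10.82, 10.68, 11.77 and 11.75). In the TNF superfamily 3 of 26 were higher, with Tnfrsf14, the receptor HVEM, at 0.91, Tnfsf10, the death ligand TRAIL, at 0.93, and Cd27. The 5 lower ones included the death receptor Tnfrsf10b (−0.70), Tnfrsf8, which encodes CD30 (−0.68), and Tnfrsf25 (−0.44). Calls lost whichever of the 4 arrays was left out were those of Cd96, Tbxa2r, Itga3, Itga4 and Itga5 (highest adjusted p between 0.145 for Itga4 and 0.257 for Itga3). Without deficient replicate 1 or either wild-type array those of Icam1, Tnfsf10 and Tnfrsf8 were lost (0.0808, 0.0698 and 0.173). S1pr4 and Itgav lost their calls without deficient replicate 1 or wild-type replicate 2, and Tnfrsf25 without either replicate 1. Itgb3 lost its call without either wild-type array and Tnfrsf10b without wild-type replicate 2.

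Of 31 genes of T cell receptor signalling 8 passed, all higher (25.8%, beside 19.4% over all genes, median 0.05). Leaving out 1 of the 4 arrays left 2 to 4 higher, and the 4 arrays alone gave 9 higher and 5 lower, the replicate block 8 and 6. Txk, a Tec-family kinase, read 10.19 and 10.11 beside 9.20 and 9.11 (1.0, SE 0.07, adjusted p = 0.000485), and Ubash3a, an inhibitory phosphatase (0.56), Dgkz (0.40) and Dgka (0.39), which remove diacylglycerol, and the kinase gene Fyn (0.29) followed. Of 20 NF-kB genes 4 were lower and 3 higher, and 0 to 2 in each direction when 1 of the 4 arrays was left out. Tnfaip3, which encodes the inhibitor A20, read 10.22 and 10.38 beside 10.98 and 10.81 (−0.59, SE 0.13, adjusted p = 0.0184), and Nfkbib (−0.40), Nfkbia (−0.37) and Tnip1 (−0.24) were lower too. Ikbke (0.47), Irak3, also an inhibitor of the pathway (0.40), and Myd88 (0.24) were higher, and Nfkbiz did not pass (0.25, adjusted p = 0.206). Of 15 Bcl-2 family genes, Bcl2l1, which encodes the survival protein BCL-XL, read 9.84 and 10.07 beside 10.60 and 10.55 (−0.62, SE 0.09, adjusted p = 0.0056). The death genes Bcl2l11 (BIM, 0.36) and Bid (−0.26) went opposite ways, and the survival gene Mcl1 was higher (0.35). With Bcl2l1, 4 of the 15 passed (26.7%). The share was 35% in the NF-kB list and 37.5% in the Gimap family, beside 19.4% over all genes. In the Gimap family of lymphocyte GTPases Gimap1 (0.35), Gimap4 (0.33) and Gimap9 (0.32) were higher of 8. The TGF-β pathway gave 2 higher of 20, the receptor gene Acvr1b (0.42) and the inhibitor Smad7 (0.21), and 2 lower, Smad3 and the corepressor gene Tgif1 (−0.46). That is 20% of the list, close to the share over all genes. Most of these small calls did not stand in every fit with 1 array left out. Those of Fyn, Tnfaip3, Tnip1, Myd88, Bid, Mcl1, Gimap1, Gimap4 and Smad7 were lost whichever of the 4 arrays was left out. Over these fits the log2 fold change ran from 0.32 to 0.34 for Gimap4 and from −0.68 to −0.50 for Tnfaip3. Nfkbib, Nfkbia and Gimap9 lost theirs without deficient replicate 1 or either wild-type array (0.0901, 0.0987 and 0.0695), Bcl2l11 without either deficient array or wild-type replicate 2 (0.087), and Irak3 without deficient replicate 2 or either wild-type array (0.188). Ubash3a and Dgka did so without either replicate 1 (0.0769 and 0.0594), Ikbke without wild-type replicate 1 (0.0569) and Tgif1 without deficient replicate 1 (0.0506). Txk passed with the low-Xist term.

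Several of the most changed genes are known from other tissues. The 20 that rose and the 20 that fell most were picked for large changes on these same arrays. Calls they kept in refits of these arrays, counted at the end of this paragraph, are thus no independent support. Prg4, the secreted lubricant proteoglycan of joints, read 9.26 and 9.41 beside 6.31 and 6.21 (3.08, SE 0.13, adjusted p = 4.86e-05), and Tns4, a focal adhesion protein gene, read 11.07 and 11.32 beside 8.86 and 9.07 (2.23, SE 0.16, adjusted p = 0.000485). Trdv2-2, a variable segment of the T cell receptor δ locus, read 8.57 and 8.19 beside 6.52 and 6.52 (1.86, SE 0.11, adjusted p = 0.000275), while the γδ T cell gene Sox13 read 8.53, 8.46, 8.48 and 8.53. Where both arrays of a group read under 7.85, the size of a change is less certain. Among others, this holds for Prg4, Trdv2-2, Klrd1, Plac8, Jaml, Entpd1 and Mx1 in wild type. In the deficient cells it holds for Olfr60, Dab2, Peg10, Ccr6, Cd93, Timd2 and Csf2. The syntrophin gene Sntb1 (10.30, 10.26, 8.69 and 8.87; 1.5), the POU factor gene Pou6f1 (10.37, 10.49, 8.97 and 8.94; 1.47), the adhesion gene Jaml (1.45), Mpzl2 (1.44) and the neighbouring Ms4a4c (1.43) and Ms4a4b (1.39) completed the 20 named genes that rose most. Of the genes that fell, Olfr60, an olfactory receptor gene, read 5.71 and 5.94 beside 8.81 and 9.11 (−3.13, SE 0.13, adjusted p = 4.86e-05), and Dab2, an endocytic adaptor, read 7.68 and 7.80 beside 9.91 and 9.73 (−2.08, SE 0.15, adjusted p = 0.000485). Vax2, a homeobox factor of the eye, read 8.91 and 8.48 beside 10.85 and 10.64 (−2.04, SE 0.15, adjusted p = 0.000485), and the lysosomal peptide transporter gene Slc15a3 read 9.83 and 9.57 beside 11.69 and 11.47 (−1.88, SE 0.18, adjusted p = 0.00136). Gap43, a growth cone protein gene (9.46, 9.40, 11.27 and 11.04; −1.73), the near-identical inhibitory receptor genes Lilr4b (−1.64) and Lilrb4a (−1.49), whose probes may not tell them apart, the protein C receptor gene Procr (8.10, 8.15, 9.84 and 9.51; −1.55), the matrix proteoglycan gene Lum (−1.44) and the imprinted, retrotransposon-derived Peg10 (7.27, 7.19, 8.62 and 8.72; −1.44) were also among the 20 that fell most. Of the 20 that fell most all passed whichever of the 4 arrays was left out and 15 with the low-Xist term. Of the 20 that rose most 14 and 9 did so, and Mpzl2 lost its call without wild-type replicate 2 (adjusted p = 0.051).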

How the data were processed

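Total RNA of 8 samples was measured on 8 one-colour Affymetrix arrays. The deposited values are log2 signals per probe set made by the authors by RMA (Affymetrix Expression Console, as the submitters' processing notes name it); versions are not given in the sources used here. RMA corrects background, brings the probe signals of arrays to 1 distribution and summarises probes, which compresses differences near background. The deposited arrays still differed in their medians, which were 7.90 to 7.93 on the SRC-3 arrays and 7.76 to 7.80 on the RORγt arrays. The values were used as deposited, between 3.50 and 15.03 over 35556 probe sets.

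Probe sets with 1 symbol in the platform table were used (21789; 1621 had several and 12146 none); the gene IDs of 21698 matched the GRCm38.p6 table of RefSeq, which gave the chromosomes. Some genes are not reported here. A probe set had to reach 7.85, the median of all values, on at least 2 arrays, and the brightest stood for its symbol. A limma 3.58.1 model (lmFit, eBayes; R 4.3.3) took 1 mean per group over all 8 arrays; tests were two-sided, with Benjamini-Hochberg adjustment over 11128 genes. SE is that of the moderated fit (4 residual and 3.53 prior degrees of freedom). The fit was tested on simulated data.

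Named are up to 20 genes per direction with the largest change past the threshold without overlap, up to 5 per direction of each gene list, or 3 by smallest p where fewer than 2 passed, and the measured members of the cytokine, receptor, transcription factor and RORγt-dependence lists; Ifng and Il10, which were too dim for the filter, come from the unfiltered fit. The members and lists were chosen with earlier results of these data known. The titles call the samples biological replicates but give no source animals, so a p-value here covers only the spread among the samples, which may be technical. The labels state no pairing of the arrays, so whether same-numbered arrays belong together is not known. Same-numbered deviations correlated with r = −0.0033 across genes, which cannot settle it. The mitosis list stood higher on replicate 1 than on replicate 2 in both pairs (0.40 and 0.24 deficient, −0.24 and −0.39 wild type). Alternatives were another normalization, other filters and probe set rules, the 4 arrays alone, a robust prior, array weights, a replicate block, a term for low-Xist arrays, other thresholds and leaving out each array; counts over the lists under each of these were added after seeing the data.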

Additional observations from a re-analysis of the deposited data

How the results depend on the processing

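Each of the 2090 genes past the threshold that could be tested kept its direction under every alternative. The alternatives reuse the arrays on which these genes were picked, so this is no independent support. A new quantile normalization (1904 genes), a shift to 1 median (2134), no filter (1777), the mean of probe sets (2081), a robust prior (2216) and removal of X- and Y-linked genes (2108) kept the count within 1.5 times. The stricter filter left 70 genes changed at least 2-fold beside 119. The 4 arrays alone gave 3294 genes (1780 higher), array weights 3569 (1892 higher, 1677 lower) and the replicate block 3311 (1794 higher), although no label pairs the arrays; these fits kept 2089, 2090 and 2090 of the 2090. A term for low-Xist arrays left 92 (51 higher, 41 lower, 56 at least 2-fold). A threshold of 0.01 left 727 (362 higher, 365 lower), and one of 0.10 gave 1613 higher. Leaving out 1 array gave between 471 and 2462 genes (271 to 1286 higher, 200 to 1176 lower), and 87 to 126 at least 2-fold. The cause of these shifts was not tested. Within pairs the median SD over genes was 0.0437 (RORγt-deficient) and 0.0453 (its wild type), beside 0.0675 (SRC-3-deficient) and 0.0735 (its wild type). Of 186 named genes past the threshold, 32 passed under every alternative. With 2 arrays a group, signals near background and differences close to the spread of a pair limit what can be called.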

Other observations

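Some markers of other cell types passed. Among B cell markers Ebf1, a B lineage factor, read 10.14 and 10.13 on the deficient arrays beside 11.37 and 11.54 on the wild-type arrays (−1.33, limma adjusted p = 0.0131), while Ms4a1, Cd79a and Pax5 were at most 7.04 on all 4 arrays, Cd79b read 8.05, 8.26, 8.45 and 8.30 without passing (−0.21, adjusted p = 0.214), and the mean of 11 B cell markers was 6.92 and 6.98 beside 7.13 and 7.01. Cd74, the invariant chain of MHC class II, read 10.95 and 11.03 beside 11.86 and 11.54 (−0.71, adjusted p = 0.0124), and H2-Ab1, a class II chain, read 10.83, 11.14, 11.21 and 11.06. Of 8 dendritic cell markers 1 passed the filter, Batf3 (−0.50, adjusted p = 0.00795), and 0 of 14 myeloid markers did. Of 7 stromal and endothelial markers past the filter, 2 were higher and 1 lower. The adhesion gene Pecam1 was higher (10.78, 10.80, 10.15 and 10.16; 0.64, adjusted p = 0.0055), as was the keratin gene Krt8 (7.95, 7.94, 7.76 and 7.71; 0.21, adjusted p = 0.0392), and the matrix gene Dcn was lower (10.02, 9.92, 10.99 and 10.48; −0.76, adjusted p = 0.0399). The CD8 gene Cd8a read 7.14, 7.20, 7.13 and 7.21. Whether other cells took part in any result was not tested.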
